A study of Mus musculus with 2 samples.

Results

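Binding of the transcription factor Ptf1a was examined around 4 genes of the Notch pathway, Hes1, Jag1, Notch1 and Dll1. The members are the positions in the authors' list of Ptf1a peaks that fall inside 4 windows of the mouse genome (build mm9), together with all reads of the 2 libraries in those windows, counted in bins of 1 kb. The windows were chromosome 16 from 29600000 to 30200000 for Hes1 and its upstream gene desert (600 kb), chromosome 2 from 136750000 to 137050000 for Jag1 (300 kb), chromosome 2 from 26250000 to 26430000 for Notch1 (180 kb) and chromosome 17 from 15400000 to 15600000 for Dll1 (200 kb). They held 99 of the 30691 listed sites: 52 in the Hes1 window, 7 in the Jag1 window, 23 in the Notch1 window and 17 in the Dll1 window. The windows are set by coordinate, and they were proposed with results of these data known. That each gene lies in its window was taken from that definition. Which listed site lies at a start site, an exon or an intron was not determined, since no mm9 annotation was used here. By order along the chromosome in RefSeq's GRCm38.p6 table, the nearest protein-coding neighbours are Opa1 and Cpn2 for Hes1, Slx4ip and Btbd3 for Jag1, Sec16a and Egfl7 for Notch1, and Ermard and Fam120b for Dll1.

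The study mapped Ptf1a binding in 266.6 cells, a mouse pancreatic line of C57BL/6 X SJL background, for comparison with expression in the dorsal pancreas of embryos that have or lack the factor. Chromatin immunoprecipitated with an antibody to Ptf1a (28502488 placed reads, from 2 immunoprecipitations pooled before sequencing) was compared with input chromatin made with no antibody (27959618 placed reads). Both came from cells at passage 26 fixed with 1% formaldehyde for 10 min. There was 1 library per group, in 1 tumour-derived line, so tests on reads compare these 2 libraries and cover counting error only, and amplified reads are not independent molecules. Outside listed sites the libraries gave 0.925 ChIP reads per input read, and every ratio below is relative to that value.

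Notch signalling passes between neighbouring cells. A ligand such as Jag1 or Dll1 on one cell binds a receptor such as Notch1 on the next, the receptor is cleaved, and its inner part joins the DNA-binding protein Rbpj to switch on targets such as Hes1, a repressor that holds progenitors undifferentiated. In the developing pancreas the pathway keeps progenitor cells from maturing too early. Ptf1a itself works in a complex with an E-box partner and with Rbpj or the related Rbpjl. Its sites pair an E-box with a box that Rbpj-type proteins read.

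The letters of the bound sites themselves are not printed, because no mm9 genome was used here. To show what an E-box looks like at genes of the pathway, the bases just upstream of 2 annotated starts follow, as RefSeq gives them for GRCm38.p6, whose coordinates are not those of the mm9 sites. Capitals mark E-boxes (CANNTG, either strand). Each run is the 250 bases before the start, 5′ to 3′ on the minus strand, at chr2:137116521-137116770 for Jag1 and at chr17:15376933-15377182 for the second of 2 listed starts of Dll1.
Jag1: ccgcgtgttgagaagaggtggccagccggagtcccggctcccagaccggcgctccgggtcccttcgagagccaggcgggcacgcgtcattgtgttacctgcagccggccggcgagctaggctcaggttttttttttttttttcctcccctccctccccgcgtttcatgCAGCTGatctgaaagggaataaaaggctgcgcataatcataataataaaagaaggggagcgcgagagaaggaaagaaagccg
Dll1: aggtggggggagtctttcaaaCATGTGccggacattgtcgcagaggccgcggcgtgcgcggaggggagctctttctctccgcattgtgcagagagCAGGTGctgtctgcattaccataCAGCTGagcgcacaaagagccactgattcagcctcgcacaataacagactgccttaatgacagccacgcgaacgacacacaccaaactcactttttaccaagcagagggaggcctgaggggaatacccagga
The Jag1 stretch holds 1 E-box and the Dll1 stretch 3, while that of Notch1 holds 0 and that of the first Dll1 start holds 1. None of these 4 stretches, from Jag1, Notch1 and the 2 Dll1 starts, holds the Rbpj-type core TTCCCA on either strand. No stretch of Hes1 was examined. Among 32851 promoter stretches of the same length, 66.2% hold an E-box, 21.6% hold TTCCCA, and 5.93% hold both with starts within 30 bases. These matches describe letters only, and whether Ptf1a bound there was not tested.

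Nearly all listed sites around the 4 genes carried more ChIP than input reads. Counting reads no more than 100 bp from each listed position, 96 of the 99 sites passed in that direction, none passed in the other, and 3 did not pass (exact binomial test over all 30691 listed sites, Benjamini-Hochberg adjusted p under 0.05). The same call held for 98.1% of the whole list, so the share of 97.0% here is that of listed sites at large. The list was made from the same ChIP library, so the calls do not stand apart from it as evidence. At the median, 52 ChIP and 6 input reads were counted per site, against 49 and 5 over the whole list. The median ratio, with 0.5 reads added to each count, was 10.9 here and 11.5 over the list. The sites without a call were at 30008633 in the Hes1 window (22 ChIP and 15 input reads), 26356527 in the Notch1 window (23 and 14) and 15406130 in the Dll1 window (26 and 19).

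**Figure D1:**
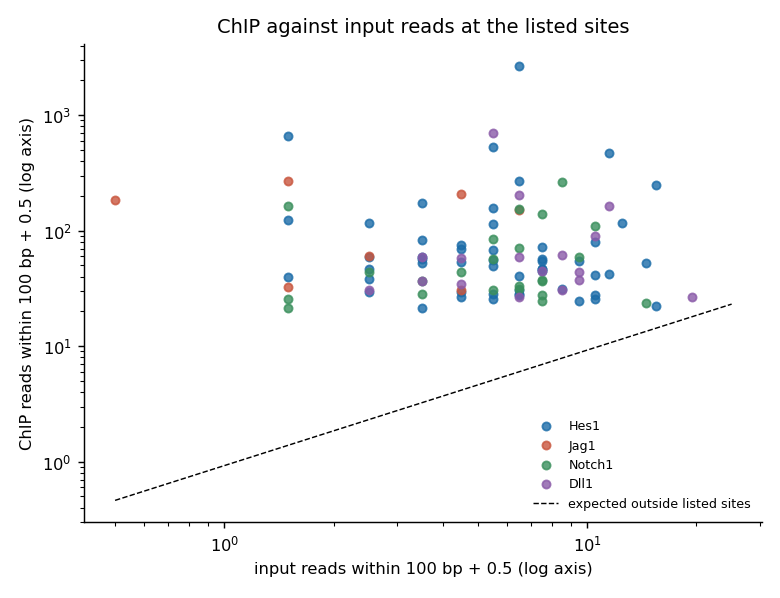
ChIP reads (vertical, log axis) against input reads (horizontal, log axis) within 100 bp of each of the 99 listed sites, with 0.5 added to each count. Each point is 1 site, coloured by window, and the dashed line is the ratio of 0.925 found outside listed sites. All points lie above the line, and the highest, with 2679 ChIP and 6 input reads, is in the Hes1 window.

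Among the ligands, Jag1 had few sites, and they carried few input reads. Its window held 7 listed sites, all called, with heights of 22 to 165 (the height is the authors' whole-number peak value, 20 or more in the list). The highest, at 136947519, had a height of 165 with 271 ChIP reads against 1 input read (ratio 293, exact 95% interval 52.2 to 11619). At 136892183, with a height of 116, there were 183 ChIP reads and no input read. With the input taken at a floor of 3 reads the ratio was 66.0, and the exact 95% lower limit from the counts themselves was 53.1. The site at 137030921, with a height of 91, had 152 ChIP and 6 input reads (ratio 27.4, 12.3 to 75.8). The first listed site of the window came 142 kb after its start, and 5 of the 7 lay within 50 kb of its centre. No Jag1 site had a listed neighbour within 1 kb.

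Dll1, the other ligand, had a single site far above the rest of its window. At 15480344, 19.7 kb before the centre, a height of 282 went with 694 ChIP and 5 input reads (ratio 150, 64.0 to 464). From distinct reads alone, with 0.5 added to each count, that ratio came to 60.9 in place of 137. By height it ranked 194 of all 30691 listed sites. The next were at 15577655 (height 128, 203 ChIP and 6 input reads, ratio 36.6, 16.5 to 101) and 15460256 (height 110, 163 and 11 reads, ratio 16, 8.72 to 32.7). The highest site alone carried 30.6% of the ChIP reads that the window held above expectation. The remaining 14 of the 17 sites had heights of 21 to 61. Only the pair at 15422472 and 15422756, 284 bp apart, lay within 1 kb of each other.

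At the receptor gene Notch1 the sites were many, and no single one stood far above the rest in height. The window held 23 listed sites, of which 4 reached a height of 100 and none passed 114. The highest, at 26350108, had 263 ChIP and 8 input reads (height 114, ratio 35.6, 17.8 to 83.2), followed by 26410805 (height 110, 154 and 6 reads, ratio 27.8, 12.5 to 76.8) and 26412397 (height 108, 138 and 7 reads, ratio 21.3, 10.1 to 54.0). The last of the 4, at 26357896 (height 107), had 163 ChIP reads and 1 input read, which gave a higher ratio of 176 (31.2 to 7005). That ratio rests on a single input read. Over the 10 kb around each site, input was 219 reads here and 227 at 26350108. A stretch of 75.6 kb between 26265872 and 26341512 held no listed site, and 21 of the 23 sites lay after the centre. Within 1 kb of another site lay 9 of them, in groups of 3 that began at 26341512, 26356527 and 26409520. The highest Notch1 site carried 13.2% of the window's excess of ChIP reads.

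The target gene Hes1 and its desert held the most sites and the highest one. At 29762204, 137.8 kb before the centre of the window, the height was 396, the greatest in the whole list, with 2679 reads from ChIP and 6 from input, a ratio of 483 (exact 95% interval 222 to 1317). Of these ChIP reads 85.2% were repeats of a position and strand already seen, and 397 were distinct. From distinct reads alone, with 0.5 added to each count, the ratio at this site was 82.2 in place of 446. Distinct reads cannot exceed 1 per position and strand within 100 bp, and 397 is close to that limit. The value of 82.2 is therefore capped, and how many of the repeats were amplified copies was not tested. Heights above 200 were also listed at 29973218 (239, with 469 ChIP and 11 input reads, ratio 46.1, 25.5 to 93.0), at 30174606 (223, with 662 and 1 reads, ratio 716, 128 to 28322) and at 30009946 (220, with 528 and 5 reads, ratio 114, 48.6 to 353). With 1 read per position and strand, on the same scale, the ratio was 25.7 in place of 44.2 at 29973218 and 204 in place of 478 at 30174606. These 4 sites lay on both sides of the centre, the first 137.8 kb before it and the others 73.2, 274.6 and 109.9 kb after it. Of the 52 sites, 7 reached a height of 100, 26 had heights from 30 to 99, and 19 had heights of 20 to 29. In 6 places sites lay within 1 kb of each other, the largest being 4 sites over 1742 bp from 30008204 to 30009946.

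**Figure D2:**
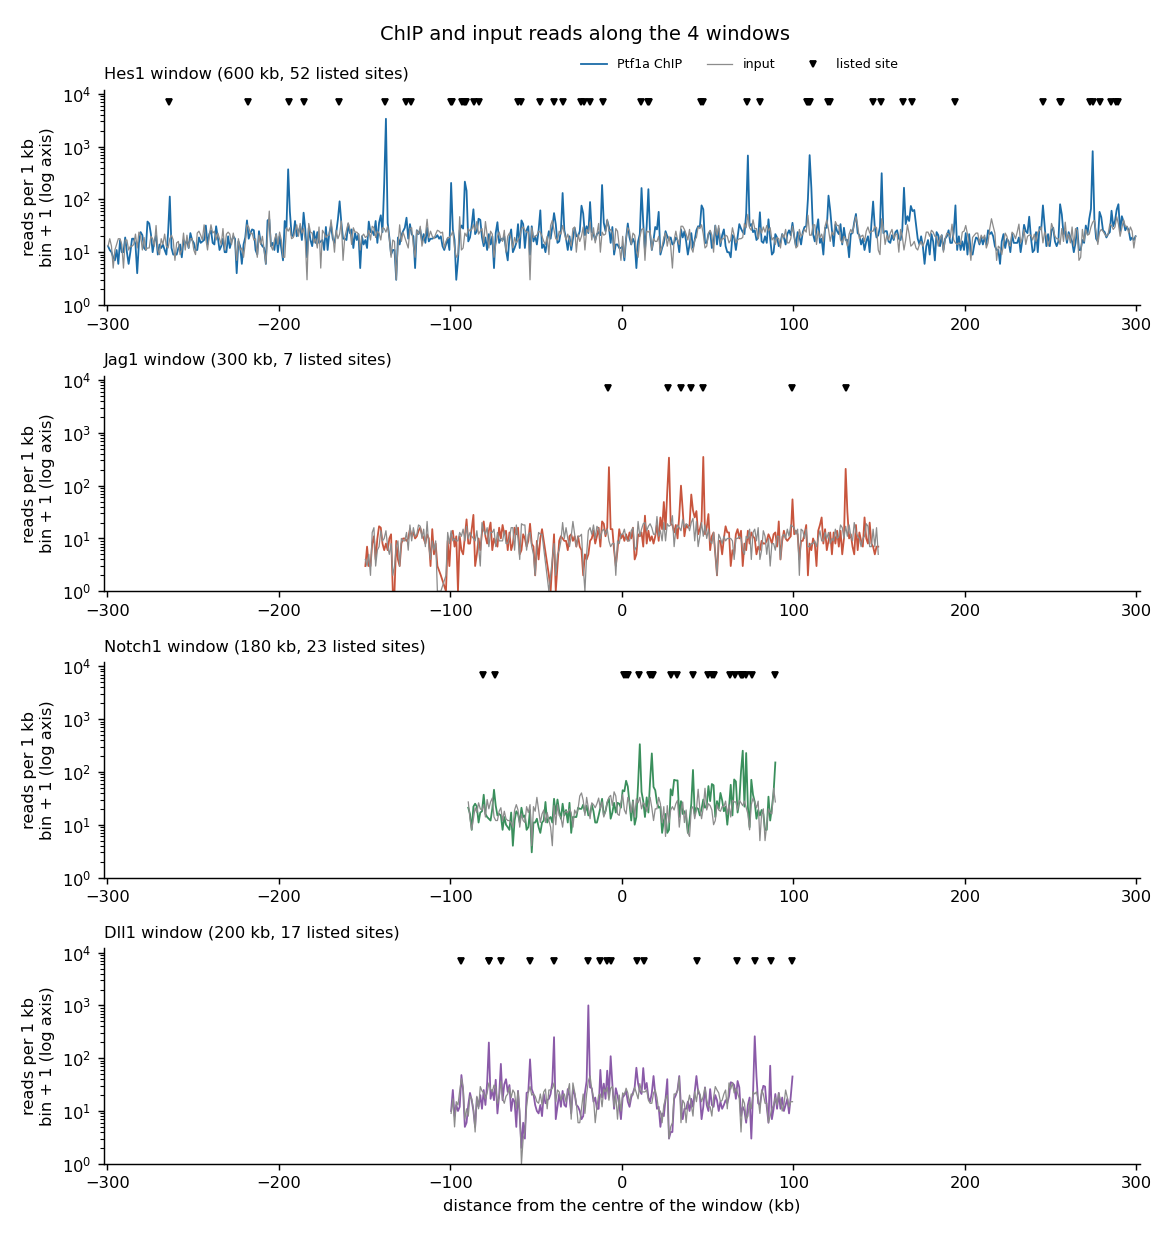
Reads per 1 kb bin plus 1 (log axis) along each window, by distance from its centre in kb, with the Ptf1a ChIP library in colour, the input in grey and listed sites as black triangles. Narrow ChIP spikes stand at listed sites above a floor that follows the input, and the triangles are sparse in the Jag1 window (7) and crowded after the centre of the Notch1 window (21 of 23).

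The heights of listed sites overlapped widely between the 4 windows, and their difference was not tested. The median height was 36 for Hes1, 50 for Jag1, 33 for Notch1 and 35 for Dll1, against 36 for the whole list, with quartiles of 25 and 64. The upper quartile was 104 over the 7 Jag1 sites, against 50.8 for Hes1, 47.5 for Notch1 and 50 for Dll1. Heights of 100 or more were listed at 16 of the 99 sites (16.2%), against 13.3% of the list. A listed neighbour within 1 kb was present at 26 of the 99 (26.3%), against 21.7% of the list.

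**Figure D3:**
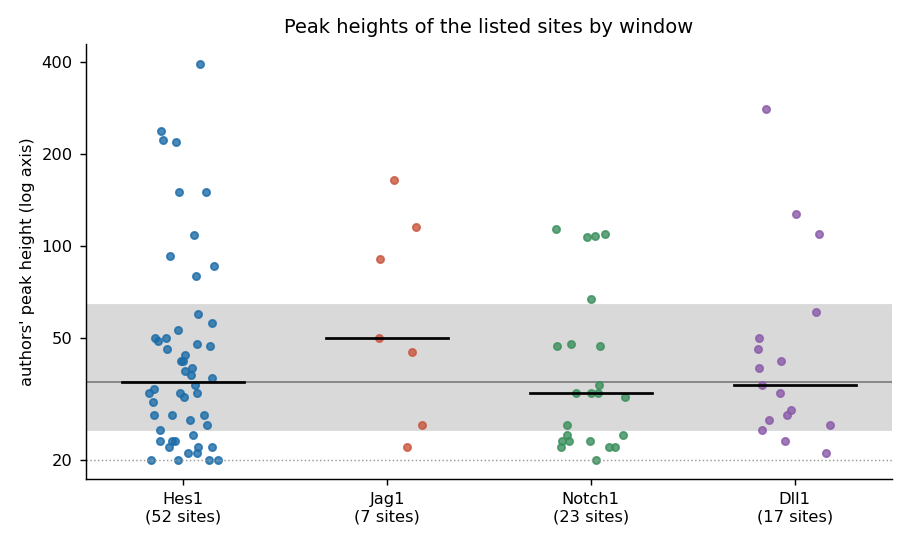
Authors' peak height (log axis) of every listed site, by window; black bars are the window medians, and the grey band and line are the quartiles (25 and 64) and the median (36) of all 30691 listed sites. The dotted line is the lowest height in the list, 20, and single high points stand out at 396 for Hes1 and 282 for Dll1.

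The first comparison between loci was of the density of listed sites. Notch1 had 0.128 sites per kb (exact 95% interval 0.0810 to 0.192), Hes1 0.0867 (0.0647 to 0.114), Dll1 0.0850 (0.0495 to 0.136) and Jag1 0.0233 (0.00938 to 0.0481). Other autosomal sequence had 0.0125 to 0.0126. The density was 6.91 times that value for Hes1 (5.16 to 9.07), 10.2 times for Notch1 (6.45 to 15.3), 6.77 times for Dll1 (3.94 to 10.8) and 1.86 times for Jag1 (0.747 to 3.83), given as a description since the windows were proposed with results known. Jag1 was below Hes1 (Hes1 3.71-fold higher, adjusted p = 0.000510), Notch1 (0.183-fold, adjusted p = 3.83e-05) and Dll1 (0.275-fold, adjusted p = 0.00478; exact binomial tests, adjusted over 10 comparisons). The other 3 pairs did not pass: Hes1 to Notch1 was 0.678-fold (0.408 to 1.16), Hes1 to Dll1 1.02-fold (0.580 to 1.88) and Notch1 to Dll1 1.5-fold (0.769 to 3). These tests treat sites as independent, although listed sites lie in groups, so their p-values are too small, and the choice of windows bears on them too.

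Input depth was lowest in the Jag1 window, which also had the lowest density of sites. Among the other windows the order of depth was not that of density. The Hes1, Notch1 and Dll1 windows had 19.9, 19.4 and 17.4 input reads per kb, or 1.76, 1.71 and 1.54 times the autosomal mean of 11.3, while the Jag1 window had 9.83, or 0.869 times. Counted per 1000 input reads in place of kb, a scale added after the data were seen, there were 4.35 sites for Hes1, 2.37 for Jag1, 6.60 for Notch1 and 4.88 for Dll1, against 1.11 on the autosomes. On that scale the density was 3.93 times that of other autosomal sequence for Hes1, 2.14 times for Jag1, 5.95 times for Notch1 and 4.40 times for Dll1. Jag1 still lay below Notch1 (0.360-fold, adjusted p = 0.0402), but no longer passed against Hes1 (Hes1 1.83-fold higher, adjusted p = 0.178) or Dll1 (0.486-fold, adjusted p = 0.152; exact binomial tests). With heights of 50 or more alone, no pair with Jag1 passed either (adjusted p of 0.557, 0.557 and 0.712 against Hes1, Notch1 and Dll1, same exact tests).

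Set against adjoining autosomal stretches of the same length, as a description, the Hes1, Notch1 and Dll1 windows were rich in sites. The Jag1 window was not unusual in its number of sites. At least 52 sites were found in 14 of 3941 stretches of 600 kb (0.355%), where the median was 5. At least 23 were found in 28 of 13146 stretches of 180 kb (0.213%, median 1), and at least 17 in 143 of 11831 stretches of 200 kb (1.21%, median 1). At least 7 were found in 1557 of 7895 stretches of 300 kb (19.7%, median 2). By the ratio of ChIP to input reads, however, only 224 of these 7895 stretches (2.84%) reached the Jag1 window. The share reaching the window's ratio was 3.05% for Notch1, 1.76% for Dll1 and 0.0254% for Hes1. The stretches were matched for length alone, and their median input was 10.6 to 10.7 reads per kb. That was below the Hes1, Notch1 and Dll1 windows (19.9, 19.4 and 17.4) and above the Jag1 window (9.83). The windows were proposed with results of these data known, so these shares are no test.

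**Figure D4:**
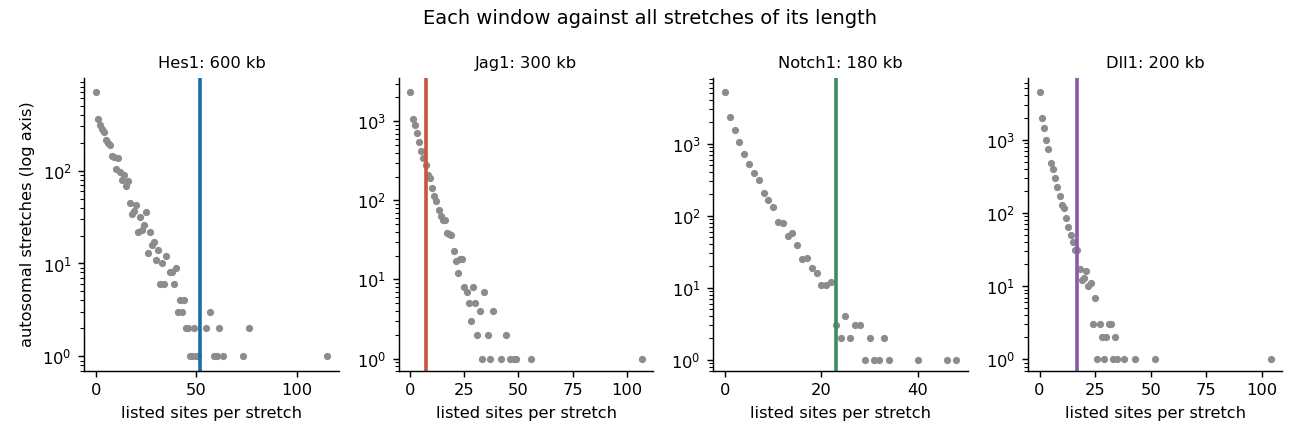
Number of autosomal stretches (vertical, log axis) by the listed sites each holds (horizontal), for stretches as long as each window; the coloured line is the window itself. The lines for Hes1 (52 sites), Notch1 (23) and Dll1 (17) stand in the sparse right tail, and that for Jag1 (7) stands nearer the bulk.

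The second comparison was of ChIP to input reads over whole windows. The Hes1 window had 20532 reads from ChIP and 11947 from input, a ratio of 1.86 (exact 95% interval 1.82 to 1.90), the Dll1 window 5475 and 3481 (1.70, 1.63 to 1.78), the Notch1 window 5165 and 3486 (1.60, 1.53 to 1.67) and the Jag1 window 4191 and 2950 (1.54, 1.47 to 1.61). Hes1 was above Jag1 by 1.21-fold (adjusted p = 6.81e-12), above Notch1 by 1.16-fold (adjusted p = 6.97e-09) and above Dll1 by 1.09-fold (adjusted p = 0.000625), and Jag1 was below Dll1 at 0.903-fold (adjusted p = 0.00252, Fisher's exact test, adjusted over 6 pairs). The pairs of Notch1 with Jag1 (adjusted p = 0.199) and with Dll1 (adjusted p = 0.0648, same exact test) did not pass. Within 100 bp of listed sites alone the order was another, and it was not tested. There the ratio was 56.2 (35.4 to 95.3) for Jag1, on 18 input reads, and 25.7 (23.0 to 28.9) for Hes1. It was 15.3 (12.7 to 18.5) for Dll1 and 12.8 (10.7 to 15.4) for Notch1.

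None of the differences between whole windows was found with 1 read per position and strand. The ratios were then 1.51 for Hes1, 1.44 for Jag1, 1.54 for Notch1 and 1.51 for Dll1, and the 4 calls were lost, with adjusted p of 0.273 to 0.908 (Fisher's exact test). That setting also caps the reads a pile can hold, most of all at the highest sites. At 29762204 in the Hes1 window it left 397 of 2679 ChIP reads. The lost calls therefore do not show whether amplified reads made the differences. Repeated reads made up 24.4% of ChIP reads in the Hes1 window (Wilson 95% interval 23.8 to 25%), 17.1% in the Dll1 window (16.1 to 18.1%), 12.2% in the Jag1 window (11.2 to 13.2%) and 10.8% in the Notch1 window (10.0 to 11.7%). Their order differed from that of the whole-window ratios of all reads only in Jag1 and Notch1. A single site weighed on the ratio too: without reads within 1 kb of the highest site, Hes1 was at 1.54 and Dll1 at 1.40, and Hes1 no longer passed against Notch1 (1.02-fold, adjusted p = 0.401, Fisher's exact test). Jag1 to Dll1 turned to 1.01-fold and lost its call (adjusted p = 0.738, same exact test), and Notch1 to Dll1, at 1.07-fold, gained one (adjusted p = 0.0489, same exact test).

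The excess of ChIP reads lay mostly at listed sites and in the first 1 kb around them. The list came from the same ChIP library, and the expected ratio from reads outside listed sites. Much of this pattern was therefore set in advance, and it is given as a description. The stretches within 100 bp of them held 36.3% of the ChIP reads of the Hes1 window (Wilson 95% interval 35.6 to 36.9%) and 2.62% of its input reads (2.35 to 2.92%). The ChIP shares were 22.3% for Jag1 (21.1 to 23.6%), 29.7% for Notch1 (28.5 to 31.0%) and 30.9% for Dll1 (29.7 to 32.2%). Of the reads above expectation, 75.5% lay within 100 bp of listed sites in the Hes1 window, 62.8% in the Jag1 window, 72.8% in the Notch1 window and 70.1% in the Dll1 window. Reads within 1 kb of listed sites accounted for 98.4%, 93.0%, 101% and 98.1% of the reads above expectation in the Hes1, Jag1, Notch1 and Dll1 windows, from 14.5%, 4.67%, 20.7% and 16.1% of their length. In bins with no listed site within 1 kb the ratio was 1.01 (0.976 to 1.04) for Hes1, 1.04 (0.982 to 1.1) for Jag1, 0.955 (0.901 to 1.01) for Notch1 and 1.04 (0.978 to 1.1) for Dll1. The same value over the whole genome was 0.968, which lies below the intervals of Hes1, Jag1 and Dll1 and inside that of Notch1.

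The third comparison was of the share of sites more than 50 kb from the centre of the window. It was 76.9% for Hes1 (40 of 52, exact 95% interval 63.2 to 87.5%), 56.5% for Notch1 (13 of 23, 34.5 to 76.8%), 52.9% for Dll1 (9 of 17, 27.8 to 77.0%) and 28.6% for Jag1 (2 of 7, 3.67 to 71.0%). The part of the window that lies so far out was 83.3%, 44.4%, 50% and 66.7% of its length in the same order. Each interval includes its window's own share of length, and the windows are not centred on the genes' starts. The order of the 4 loci was not tested.

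A scan of all bins, with the expected ratio taken outside listed sites, called 103 of the 1272 bins with reads in the 4 windows (8.10%), against 1.62% of all such bins in the genome (exact one-sided binomial test, Benjamini-Hochberg adjusted p under 0.05 over 2439473 bins). Of the 103, 93 lay at or within 1 kb of a listed site. By window, 53 of 600 bins were called for Hes1, 10 of 292 for Jag1, 25 of 180 for Notch1 and 15 of 200 for Dll1. Bins with more reads are easier to call, and the shares called are not matched for depth. Input per kb was 1.76, 1.71 and 1.54 times the autosomal mean for Hes1, Notch1 and Dll1, and 0.869 times for Jag1. Bins with no listed site within 1 kb were called in 10 of 1032 cases (0.969%), against 0.451% of such bins in the genome, a share that 10 bins place loosely. Of the 10, 7 were in the Hes1 window, led by the bin from 29703001 to 29704000 with 38 reads from ChIP and 7 from input, a ratio of 5.87 (exact 95% interval 2.59 to 15.6). The other windows had 1 each: from 136924001 to 136925000 for Jag1 (48 and 19 reads, ratio 2.73), from 26359001 to 26360000 for Notch1 (44 and 19, ratio 2.50) and from 15518001 to 15519000 for Dll1 (45 and 21, ratio 2.32). The most distinct ChIP reads in any 200 bp of these 10 bins were 28, in the Hes1 bin from 30137001 to 30138000.

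At the highest site of each window, read starts of the 2 strands gathered on opposite sides of the listed position. At 29762204 in the Hes1 window the plus-strand read starts had their median 57 bp before the listed position and the minus-strand starts 94 bp after it (1601 and 1788 reads within 300 bp). The same medians were 76 and 80 bp for Jag1 at 136947519, 98 and 55 bp for Notch1 at 26350108, and 77 and 54 bp for Dll1 at 15480344. The plus-strand starts of the Notch1 site fell into separate humps, with 24 in the 20 bp centred 150 bp before the position, 0 in those centred 90 bp before it and 15 in those centred 70 bp before it.

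**Figure D5:**
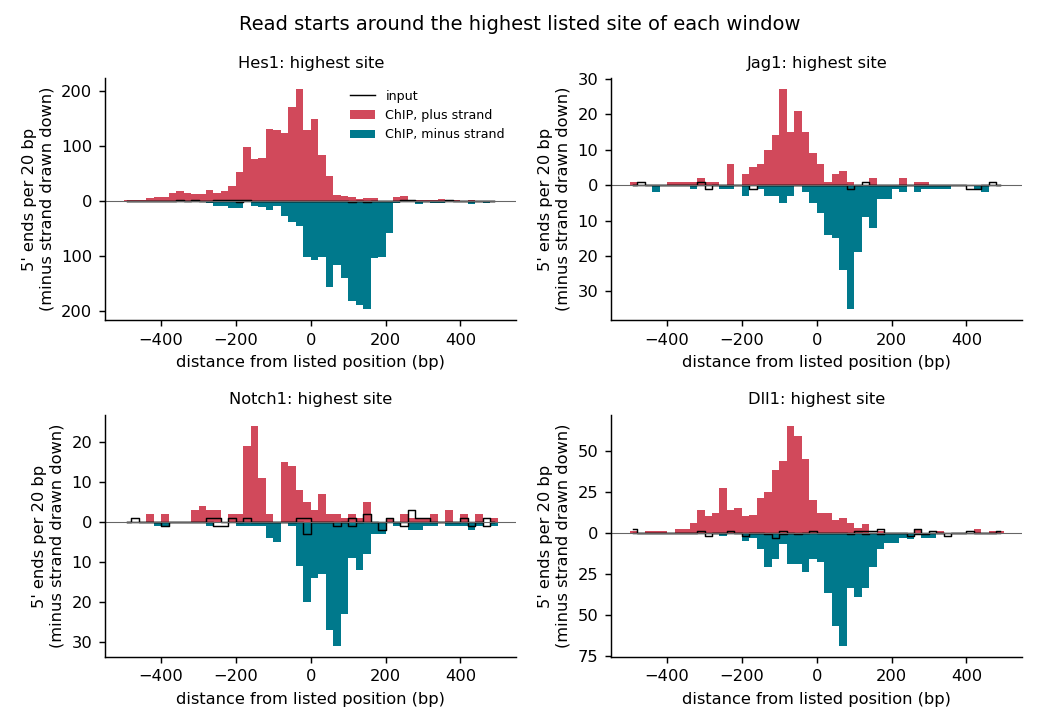
Read starts (5′ ends per 20 bp) by distance in bp from the highest listed site of each window, plus strand drawn up and minus strand drawn down, with the ChIP library as bars and the input as a black line. Plus-strand starts gather before the position and minus-strand starts after it in each panel. The vertical scales differ, with ChIP reads within 100 bp running from 263 for Notch1 to 2679 for Hes1.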

How the data were processed

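Per the submitters' processing notes the reads were placed on mm9. The sources used here name no aligner and no read filter. The deposited read files hold counts, 1 line with a value of 1 per placed read of 37 bp, with no normalization. The deposited peak list gives a signal value per position on spans of 100 bp, per the file headers, and the sources used here name neither its caller nor its threshold or scale. Read 5′ ends were moved 73 bp downstream, near the middle of the strand shift found (145 bp in ChIP, 150 bp in input). Repeated reads were 10.2% of ChIP and 3.29% of input reads. Sites were counted within 100 bp of the listed position, since read piles are centred on it. The exact tests ran over all listed sites or all bins of chromosomes 1 to 19 and X (Python 3.11.15, SciPy 1.17.1). These site and bin tests were tried on simulated independent counts, which held no repeated reads. The tests between windows were not tried on simulated data. Stretches had reads in at least 50% of their bins. Intervals of 95% cover counting error only. In each window the sites named were the 3 highest and the unlisted called bin of highest ratio; others were named after their values were seen. The windows and lists were chosen with earlier results of these data known. The fixed list of other Notch pathway genes and the motif counts at sites were not analysed here, since they need mm9 annotation and sequence.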

Additional observations from a re-analysis of the deposited data

How the results depend on the processing

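No paired analysis was possible because there was 1 library per group. At the 3 highest sites of each window, 12 in all, the call stayed under every alternative tried (48 of 48 checks). Library totals were not tried there. Picked by height, these sites had adjusted p of 1.82e-34 or less at first (exact binomial test), so the checks put their calls at little risk. Their ratios moved. With 0.5 added they ran from 82.2 to 1338 at the highest Hes1 site and from 60.9 to 196 at the highest Dll1 site. With heights of 50 or more, 29 sites were called in place of 96 (fewer sites tested), and sites per kb were 0.0250 for Hes1, 0.0133 for Jag1 (3.12 times other autosomal sequence), 0.0278 for Notch1 and 0.0250 for Dll1. Jag1 then lost its difference from Hes1 (rate ratio 1.88), Notch1 (0.480) and Dll1 (0.533), and per 1000 input reads from Hes1 (1.83) and Dll1 (0.486). The other 55 of 60 checks of density kept their call.

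Window ratios moved too. For Hes1 they were 1.51 with distinct reads, 1.81 with 5′ ends not moved, 1.69 with library totals, 1.92 with 10% of the length left out at each end and 1.75 with 10% added. For Jag1 they were 1.44 with distinct reads and 1.39 with library totals. For Notch1 they were 1.45 with library totals and 1.48 with 10% added, and for Dll1 1.51 with distinct reads, 1.54 with library totals and 1.80 with 10% left out. Bins away from listed sites gave 1.01, 1.04, 0.955 and 1.04 for Hes1, Jag1, Notch1 and Dll1. Without the highest site the values were 1.54, 1.42, 1.51 and 1.40, and without the 3 highest 1.42, 1.26, 1.37 and 1.25 (both added after seeing the data, as was the added 10%).

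Between windows, distinct reads gave 1.05 for Hes1 to Jag1, 0.981 for Hes1 to Notch1, 0.997 for Hes1 to Dll1 and 0.951 for Jag1 to Dll1. The second and the third changed direction, and none passed. Bins away from sites gave 0.970, 1.05, 0.971 and 1.00 for these pairs. Without the highest site Hes1 to Notch1 was 1.02 and Jag1 to Dll1 1.01, and without the 3 highest 1.04 and 1.01. Some pairs gained a call: Notch1 to Dll1 at 0.875 with 10% left out, 0.906 with 10% added, 1.07 without the highest site and 1.09 without the 3 highest, and Jag1 to Notch1 at 0.923 without the 3 highest. Causes were not tested. The share of Jag1 sites beyond the distance was 85.7% at 25 kb.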

Other observations

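Listed heights and distinct reads went apart at some sites. At 10 of the 99 sites (10.1%) the distinct ChIP reads within 100 bp were at least 1.5 times the listed height, against 7.47% of the whole list. The widest gap was at 136927153 in the Jag1 window, with a height of 45 and 135 distinct reads, and 190 distinct reads in the window of the same size that held the most, which lay upstream of the listed position. At 26429129 in the Notch1 window a height of 33 went with 88 distinct reads, at 29865736 in the Hes1 window 28 with 70, and at 30094067 in the Hes1 window 26 with 59. Of the 84 sites with no listed neighbour within 600 bp, 82 had most reads within 50 bp of the listed position. The cause of these gaps was not tested.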
